A study of Mus musculus with 9 samples.

Results

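The genes described here are 10 members of the p53 pathway and of the families of cyclin-dependent kinase (CDK) inhibitors: Trp53, Mdm2, Cdkn1a, Cdkn1b, Cdkn1c, Cdkn2a, Cdkn2b, Ccng1, Sesn2 and Phlda3. They were taken by symbol from the deposited expression table. All 10 were found among its 20778 symbols, and all 10 were among the 13773 symbols with a mean of at least 10 that were tested. Bulk RNA was sequenced from GL261, a mouse glioblastoma line, grown together with brain cells in culture or as a tumour in the animal, with 3 libraries in each of 3 groups.

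In the 3D bioink group, GL261 carrying mCherry was grown in a fibrin gel with primary mouse cells, namely endothelial cells, pericytes, microglia and astrocytes. In the 2D culture group, the same 5 cell types shared a dish. GL261 was seeded at 1000000 cells per ml in both cultures, and the primary cells came from brains of male C57BL/6 mice aged 6 to 10 weeks. The tumour group came from brains of male, immunocompetent C57BL/6 mice in which 50000 mCherry-labelled GL261 cells had been placed in the striatum at an age of 7 weeks. These brains were removed on day 14, and the protocol counts 5 mice. Before RNA was isolated, the 3D bioink alone spent 3 h in collagenase II (600 U per ml), so that this step and the gel cannot be told apart. The labels do not say whether the 3 libraries of a group came from separate animals or cultures.

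p53, the product of Trp53, is a transcription factor that is kept low by the ubiquitin ligase Mdm2 and builds up after DNA damage or oncogene signalling. It then turns on genes that arrest the cell cycle, repair DNA or kill the cell, and it turns on Mdm2, which closes the loop. CDK inhibitors hold the kinases that drive the cell through G1 and S phase. The CIP/KIP family (Cdkn1a, Cdkn1b, Cdkn1c) binds several cyclin-CDK complexes, and the INK4 family (Cdkn2a, Cdkn2b) binds Cdk4 and Cdk6, which otherwise phosphorylate the retinoblastoma protein. The Trp53 and CDKN2A loci are among those most often lost or mutated in human glioblastoma. GL261 is known to carry a mutated Trp53, and a value per gene symbol does not show which allele was read.

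The sequences that p53 and E2F proteins recognise were looked for in the 250 bases before each RefSeq transcription start of the members in GRCm38.p6. Of the 10 genes, 9 were matched by symbol, with 11 windows. Windows with a match are shown because Cdkn1a and Ccng1 are textbook p53 targets, and because Cdkn2a has a pair of promoters whose transcripts share 1 symbol in the table. The p53 response element consensus was searched as a pair of decamers with a spacer of at most 13 bases and at most 1 mismatch in 20 bases. Capitals in the first 2 sequences mark that match, which had no spacer and 1 mismatch in each. In Cdkn1a (chr17:29090729-29090978, plus strand) it began at base -51 from the upstream start, and in Ccng1 (chr11:40755287-40755536, minus strand) at base -195. Capitals in the third mark TTTCCCGC, an E2F-type motif searched on both strands, at base -99 of the distal Cdkn2a promoter, which drives the p19Arf transcript (chr4:89294620-89294869, minus strand). The fourth is the proximal Cdkn2a promoter, which drives p16Ink4a (chr4:89282193-89282442, minus strand), and it held no match to either motif.
Cdkn1a: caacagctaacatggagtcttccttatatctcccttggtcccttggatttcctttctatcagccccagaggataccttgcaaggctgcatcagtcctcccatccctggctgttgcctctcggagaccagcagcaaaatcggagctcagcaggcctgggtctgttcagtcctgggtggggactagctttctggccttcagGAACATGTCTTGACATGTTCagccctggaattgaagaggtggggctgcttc
Ccng1: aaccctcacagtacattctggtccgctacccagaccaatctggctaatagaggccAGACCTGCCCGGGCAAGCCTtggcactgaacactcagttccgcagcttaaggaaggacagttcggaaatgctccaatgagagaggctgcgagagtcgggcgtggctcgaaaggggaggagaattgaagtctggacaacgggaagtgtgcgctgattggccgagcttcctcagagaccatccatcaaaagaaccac
Cdkn2a, distal: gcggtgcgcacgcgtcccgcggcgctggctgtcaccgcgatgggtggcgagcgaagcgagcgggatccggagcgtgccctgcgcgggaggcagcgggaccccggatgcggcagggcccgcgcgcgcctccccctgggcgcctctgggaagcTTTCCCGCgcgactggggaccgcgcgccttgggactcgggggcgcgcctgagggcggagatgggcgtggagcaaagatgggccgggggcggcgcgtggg
Cdkn2a, proximal: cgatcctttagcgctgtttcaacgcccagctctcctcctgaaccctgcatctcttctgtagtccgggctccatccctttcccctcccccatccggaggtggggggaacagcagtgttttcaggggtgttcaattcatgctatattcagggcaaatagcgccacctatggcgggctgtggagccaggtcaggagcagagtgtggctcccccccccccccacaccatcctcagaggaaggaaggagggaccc

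Among all 32851 RefSeq windows of the same length, 0.898% held the p53 consensus with a spacer of up to 13 bases, 0.0761% held it with no spacer, and 0.895% held TTTCCCGC. The other 8 windows of the members, the proximal one of Cdkn2a included, held neither motif. A match describes the letters and is neither a shown binding site nor a cause, and p53 elements elsewhere in a gene, as in an intron, lie outside these windows.

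The values are normalized counts, and the depth behind them is unknown. They sum to 13548461 to 13683978 in 3D bioink, 15572800 to 15711632 in 2D culture and 16320090 to 16388074 in tumours. Limma's array weights set 2 libraries of the 3D bioink apart, replicate 1 at 0.236 and replicate 3 at 4.96, while the remaining 7 ran from 0.688 to 1.77. Libraries hold mixed cells, and fewer cells of a type and less RNA per cell cannot be told apart in them. The 10 microglia and macrophage markers summed to 425 to 467 in 3D bioink and 200 to 244 in 2D culture, against 19346 to 20296 in tumours. Tyrobp was listed at 0 in all 6 culture libraries and Adgre1 in the 3 of 2D culture, although microglia are among the cells that the labels give for both. The 6 fibroblast markers, a cell type that the labels do not name, summed to 13909 to 14973 in 3D bioink and 8960 to 9507 in 2D culture, against 945 to 1004 in tumours. Col1a1 and Col1a2 made up most of these sums, while Dcn and Lum averaged 374 and 45.0 in 3D bioink, 2.33 and 1.00 in 2D culture, and 4.00 and 5.67 in tumours. The 10 markers of cycling cells summed to 11462 to 12388 in 3D bioink, 25026 to 25784 in 2D culture and 12720 to 13219 in tumours. The part of these mixtures in each result below was not tested.

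**Figure D1:**
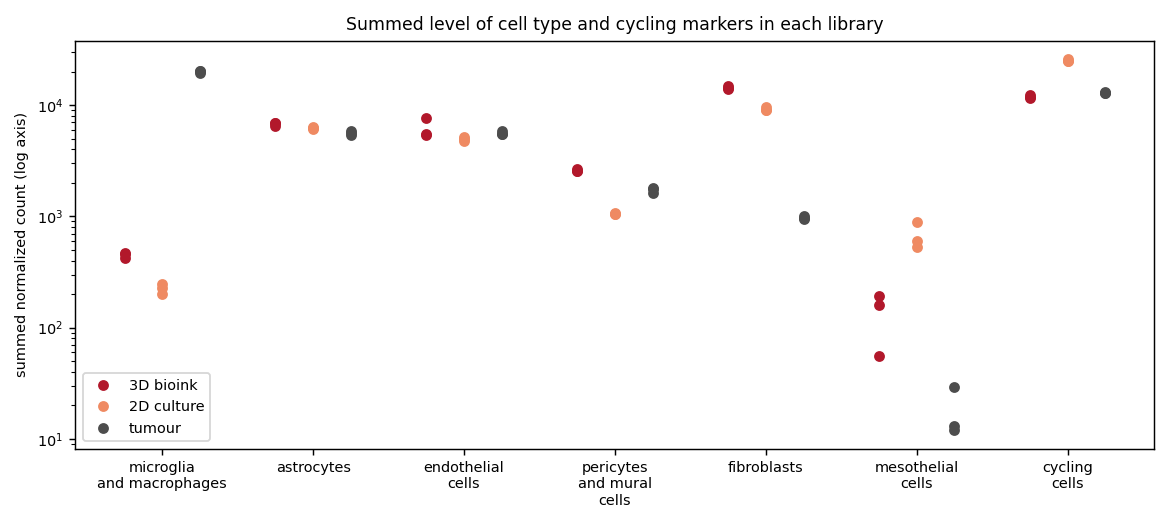
Summed normalized counts of the marker lists (log axis) in each library, by group (3D bioink, 2D culture, tumour). Points are libraries; the microglia and macrophage sum lies between 19346 and 20296 in tumours and at 467 or lower in every culture library, and the sum for cycling cells is highest in 2D culture.

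Of the 10 members, 8 passed the test between 3D bioink and tumours (limma on log2(value + 1), adjusted p below 0.05 over all genes tested), with 4 higher and 4 lower in 3D bioink. That share stands against 64.4% of all genes (27.1% higher and 37.3% lower), so the number of members called is not a result about the members by itself. Between 2D culture and tumours, 6 passed, with 2 higher and 4 lower, against 54.3% of all genes (27.3% higher and 27.0% lower). Between 3D bioink and 2D culture, 7 passed, with 3 higher and 4 lower, against 59.2% of all genes (27.0% higher and 32.2% lower). The median log2 difference over the 10 members was -0.04, 0.01 and -0.07 in these comparisons, beside -0.11, 0.01 and -0.02 over all genes tested. Of the members called, 3 differed at least 2-fold between 3D bioink and tumours (Ccng1 up, Trp53 and Sesn2 down), 2 between 2D culture and tumours (Ccng1 up, Sesn2 down), and none of the 7 called between the cultures. Over all genes the shares were 29.8% (14.2% higher and 15.6% lower), 23.8% (9.02% and 14.8%) and 25.3% (14.4% and 10.9%). Both counts against tumours lie near these shares and are not a result about the members by themselves. The first 2 comparisons share the tumour libraries.

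**Figure D2:**
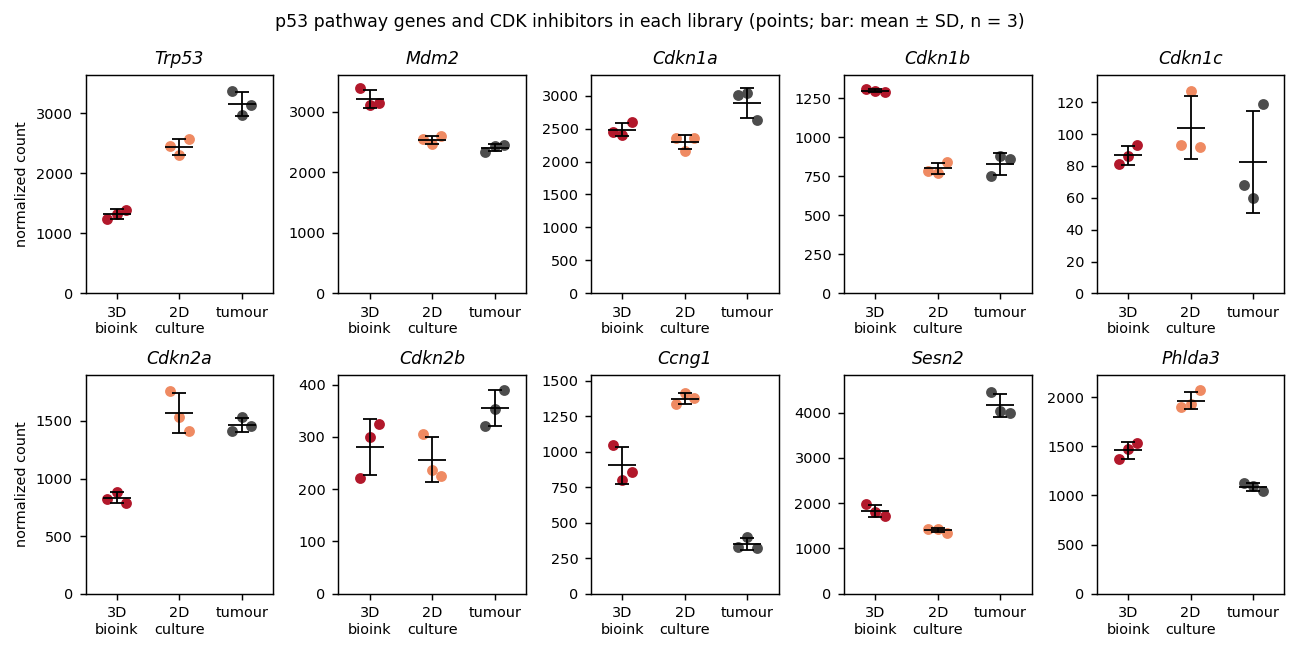
Normalized counts of the 10 members in each library (linear axes from 0), for 3D bioink, 2D culture and tumour. Points are libraries and bars give the mean ± SD (n = 3); Ccng1 is lowest in tumours, between 320 and 396, and Sesn2 is highest there, between 3994 and 4450.

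Trp53 itself lies at chr11:69580359-69591873 on the plus strand of GRCm38. It had 1234, 1326 and 1392 normalized counts in 3D bioink, 2444, 2300 and 2563 in 2D culture, and 3361, 2962 and 3128 in tumours. The 3 groups did not overlap, with means of 1317 ± 79.4 in 3D bioink, 2436 ± 132 in 2D culture and 3150.3 ± 200.4 in tumours (SD, n = 3 each). Trp53 was 2.39-fold lower in 3D bioink than in tumours (log2 difference -1.26, SE 0.07, limma adjusted p = 2.87e-07). It was 1.29-fold lower in 2D culture than in tumours (-0.37, SE 0.07, limma adjusted p = 0.00137) and 1.85-fold lower in 3D bioink than in 2D culture (-0.89, SE 0.07, limma adjusted p = 3.58e-06). The annotation also names a pseudogene, Trp53-ps, and reads may have been split between them.

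Mdm2, which encodes the ligase that marks p53 for breakdown and is at the same time a p53 target, lies at chr10:117688875-117710758 on the minus strand. Its normalized counts were 3391, 3109 and 3143 in 3D bioink, 2546, 2462 and 2592 in 2D culture, and 2342, 2440 and 2448 in tumours. All 3 libraries of the 3D bioink were above all others, while the highest tumour library lay just under the lowest of 2D culture. Means were 3214 ± 154 in 3D bioink, 2533 ± 65.9 in 2D culture and 2410.0 ± 59.0 in tumours (SD, n = 3 each). Mdm2 was higher in 3D bioink than in tumours by 0.41 on the log2 scale (SE 0.05, limma adjusted p = 7.03e-05) and than in 2D culture by 0.34 (SE 0.05, limma adjusted p = 0.000307). Between 2D culture and tumours the log2 difference was 0.07 (95% interval -0.04 to 0.19, limma adjusted p = 0.275). Trp53 and Mdm2 thus stood in opposite order in the 3D bioink, Trp53 at its lowest and Mdm2 at its highest.

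Cdkn1a encodes p21, the CDK inhibitor through which p53 arrests cells in G1, and lies at chr17:29090976-29100727 on the plus strand. Its normalized counts were 2452, 2398 and 2593 in 3D bioink, 2360, 2166 and 2359 in 2D culture, and 3005, 3033 and 2630 in tumours. No library of either culture reached the lowest tumour library, although the gap to 3D bioink replicate 3 was small. Means were 2481 ± 100.7 in 3D bioink, 2295 ± 112 in 2D culture and 2889 ± 225 in tumours (SD, n = 3 each). Cdkn1a was lower in 2D culture than in tumours, with a log2 difference of -0.33 (SE 0.07, limma adjusted p = 0.00249). Against tumours, 3D bioink showed -0.22 (SE 0.07, limma adjusted p = 0.0191), and this call rested on the scaling and on single libraries. With equal library totals the difference was 0.045, with quantile normalization 0.015, and it missed the threshold without 3D bioink replicate 2 (-0.19), tumour replicate 1 (-0.19) or tumour replicate 2 (-0.18). Between 3D bioink and 2D culture it was 0.11 (95% interval -0.04 to 0.27, limma adjusted p = 0.187), and it was 0.31 with equal library totals, 0.28 with equal upper quartiles, 0.33 with quantile normalization and 0.17 with array weights, called in each. An overlapping annotated transcript on the minus strand, AC167363.2, could share reads with it, since the sources used here do not say whether strand was used in counting.

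Cdkn1b encodes p27, which restrains Cdk2 in quiescent cells and is removed through Skp2, and lies at chr6:134920401-134925513 on the plus strand. It had 1307, 1295 and 1291 normalized counts in 3D bioink, 785, 774 and 842 in 2D culture, and 751, 877 and 863 in tumours. The 3D bioink libraries lay close together and above every other library, and 2D culture and tumours overlapped. Means were 1298 ± 8.33 in 3D bioink, 800.3 ± 36.5 in 2D culture and 830.3 ± 69.1 in tumours (SD, n = 3 each). Cdkn1b was 1.57-fold higher in 3D bioink than in tumours (log2 difference 0.65, SE 0.08, limma adjusted p = 4.18e-05) and 1.62-fold higher than in 2D culture (0.70, SE 0.08, limma adjusted p = 3.01e-05). Between 2D culture and tumours the log2 difference was -0.05 (95% interval -0.22 to 0.12, limma adjusted p = 0.607).

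Cdkn1c, which encodes p57, an imprinted inhibitor of the same family that acts mostly in development, had 81, 86 and 93 normalized counts in 3D bioink, 93, 127 and 92 in 2D culture, and 68, 60 and 119 in tumours. Every pair of groups overlapped, and the tumour libraries alone spanned 60 to 119. No comparison passed the test, with log2 differences of 0.14 for 3D bioink against tumours (95% interval -0.50 to 0.77), 0.38 for 2D culture against tumours (-0.25 to 1.01) and -0.25 for 3D bioink against 2D culture (-0.88 to 0.39). The value for 2D culture against tumours was 0.78 and called with quantile normalization, and 0.68 and called without tumour replicate 3, and that for 3D bioink against tumours was -0.06 without tumour replicate 2. The gene lies at chr7:143458339-143461050 on the minus strand, and the antisense gene Gm44732 overlaps it. The intervals are wide, and that for 3D bioink against tumours holds the log2 difference of Cdkn1b there (0.65). The interval for 3D bioink against 2D culture does not hold the Cdkn1b value of 0.70, although it holds a fall of that size.

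Cdkn2a and Cdkn2b lie 11645 bases apart on the minus strand of chromosome 4, at chr4:89274471-89294653 and chr4:89306299-89311039. The Cdkn2a symbol joins p16Ink4a, an inhibitor of Cdk4 and Cdk6, and p19Arf, which binds Mdm2 and so protects p53, and the table does not separate them. Its normalized counts were 826, 885 and 790 in 3D bioink, 1761, 1532 and 1413 in 2D culture, and 1409, 1530 and 1455 in tumours. Each 3D bioink library was below every other library, whereas 2D culture and tumours overlapped. Means were 833.7 ± 48.0 in 3D bioink, 1569 ± 177 in 2D culture and 1465 ± 61.1 in tumours (SD, n = 3 each). Cdkn2a was 1.76-fold lower in 3D bioink than in tumours (log2 difference -0.81, SE 0.09, limma adjusted p = 2.30e-05) and 1.87-fold lower than in 2D culture (-0.91, SE 0.09, limma adjusted p = 1.30e-05). Between 2D culture and tumours the log2 difference was 0.09 (95% interval -0.10 to 0.29, limma adjusted p = 0.395). Cdkn2a and Cdkn1b therefore ran in opposite directions, both with the 3D bioink apart from the other groups.

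Cdkn2b encodes p15, an INK4 inhibitor known to be induced by TGF-beta. It had 221, 299 and 324 normalized counts in 3D bioink, 306, 237 and 226 in 2D culture, and 321, 353 and 390 in tumours. The tumour libraries lay above those of 2D culture, and 1 library of the 3D bioink reached into the tumour range. Means were 281 ± 53.7 in 3D bioink, 256 ± 43.4 in 2D culture and 355 ± 34.5 in tumours (SD, n = 3 each). The log2 difference between 2D culture and tumours was -0.48 (SE 0.18, limma adjusted p = 0.0441). That call was lost in 11 alternatives, among them each fit without a tumour library (-0.54, -0.48 and -0.40 without replicates 1, 2 and 3), without 2D culture replicate 2 (-0.43) or 3 (-0.39), and without 3D bioink replicate 2 (-0.48). The rest were equal library totals (-0.41), quantile normalization (-0.34), no filter on low values, no trend and the replicate block. For 3D bioink against tumours the log2 difference was -0.35 (95% interval -0.74 to 0.05, limma adjusted p = 0.110), and in 3D bioink against 2D culture 0.13 (-0.27 to 0.52, limma adjusted p = 0.557). The neighbours in the locus did not follow the same order of groups: Cdkn2a was at its lowest in 3D bioink, where Cdkn2b overlapped 2D culture.

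**Figure D3:**
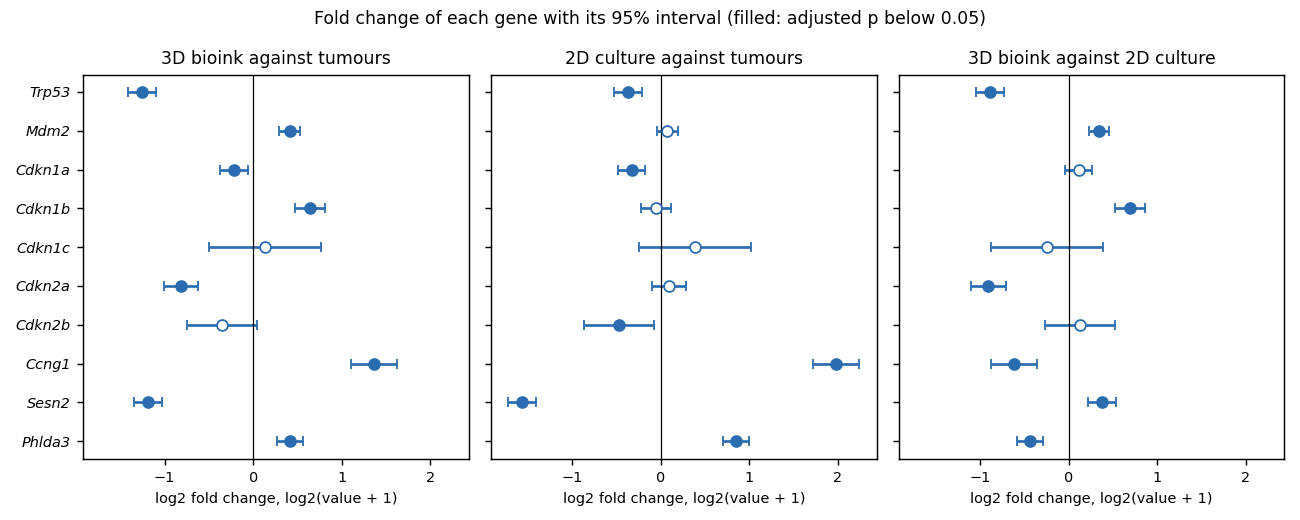
Log2 difference with its 95% interval for the 10 members in 3 panels (3D bioink against tumours, 2D culture against tumours, 3D bioink against 2D culture). Filled points passed the test (limma adjusted p below 0.05); Ccng1 has the highest value in both comparisons with tumours (1.37 and 1.98), and Trp53 (-1.26) and Sesn2 (-1.57) the lowest.

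The 3 remaining members are p53 targets that do not inhibit CDKs, and they split. Ccng1 encodes cyclin G1, which brings a phosphatase to Mdm2, and lies at chr11:40748552-40755311 on the minus strand. Its normalized counts were 1047, 801 and 859 in 3D bioink, 1332, 1410 and 1375 in 2D culture, and 329, 396 and 320 in tumours. The groups did not overlap, and the lowest culture library held 801 against 396 in the highest tumour library. Means were 902 ± 129 in 3D bioink, 1372 ± 39.1 in 2D culture and 348 ± 41.5 in tumours (SD, n = 3 each). Ccng1 was 2.58-fold higher in 3D bioink than in tumours (log2 difference 1.37, SE 0.12, limma adjusted p = 4.45e-06). It was 3.95-fold higher in 2D culture than in tumours (1.98, SE 0.12, limma adjusted p = 3.58e-07), and 96.5% of the genes tested had a smaller signed difference there. Between the cultures it was 1.53-fold lower in 3D bioink (-0.61, SE 0.12, limma adjusted p = 0.00122).

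Sesn2 encodes sestrin 2, a leucine sensor that restrains mTORC1 and is also induced by the integrated stress response, and lies at chr4:132492032-132510501 on the minus strand. It had 1980, 1794 and 1711 normalized counts in 3D bioink, 1423, 1435 and 1351 in 2D culture, and 4450, 4043 and 3994 in tumours. The tumour libraries were each far above the cultures, and the cultures did not overlap each other. Means were 1828 ± 138 in 3D bioink, 1403 ± 45.4 in 2D culture and 4162 ± 250.3 in tumours (SD, n = 3 each). Sesn2 was 2.28-fold lower in 3D bioink than in tumours (log2 difference -1.19, SE 0.07, limma adjusted p = 3.73e-07) and 2.96-fold lower in 2D culture (-1.57, SE 0.07, limma adjusted p = 5.35e-08). In 3D bioink it was higher than in 2D culture by 0.38 (SE 0.07, limma adjusted p = 0.000992). The annotated gene Gm12981 overlaps it.

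Phlda3 encodes a protein of little more than a PH domain, which competes with Akt for membrane lipids, and lies at chr1:135766119-135769136 on the plus strand. Its normalized counts were 1368, 1476 and 1529 in 3D bioink, 1901, 1926 and 2070 in 2D culture, and 1128, 1096 and 1046 in tumours. No groups overlapped, and the order was that of Ccng1, with 2D culture at the top and tumours at the bottom. Means were 1458 ± 82.1 in 3D bioink, 1966 ± 91.2 in 2D culture and 1090.0 ± 41.3 in tumours (SD, n = 3 each). Phlda3 was higher than in tumours by 0.42 in 3D bioink (SE 0.06, limma adjusted p = 0.000300) and by 0.85 in 2D culture (SE 0.06, limma adjusted p = 2.52e-06). It was lower in 3D bioink than in 2D culture, with a log2 difference of -0.43 (SE 0.06, limma adjusted p = 0.000289).

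The members did not move as a block in any comparison. Ccng1 and Phlda3 were higher in both cultures than in tumours, while Sesn2 and Cdkn1a, which are also p53 targets, were lower, Cdkn1a in 3D bioink only with the limits given above. Mdm2 was higher in 3D bioink than in both other groups, and Trp53 was lower in both cultures. The groups of Trp53, Mdm2, Cdkn1a, Ccng1, Sesn2 and Phlda3 were fully apart in all 3 comparisons, and groups did not overlap for 8, 7 and 8 of the 10 members, beside 67.6%, 63.9% and 67.1% of all genes.

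A further 26 known p53 target genes were examined beside the members. Against tumours, 3D bioink had 8 higher and 9 lower (27.1% and 37.3% over all genes), with a median log2 difference of -0.22 (-0.28 without Eda2r, listed at 0 in all tumour libraries). In 2D culture against tumours 11 were higher and 7 lower (27.3% and 27.0% over all genes), with a median of 0.34 (0.24 without Eda2r), and in 3D bioink against 2D culture 9 were higher and 9 lower (27.0% and 32.2% over all genes), with a median of -0.15. Pmaip1, which encodes the BH3 protein Noxa, had 62, 45 and 62 normalized counts in 3D bioink, 241, 248 and 245 in 2D culture, and 254, 393 and 287 in tumours. It had the largest fall of the list in 3D bioink against tumours (-2.44, SE 0.20, limma adjusted p = 4.05e-06). Bax, the pore-forming death effector, was chosen after its values were seen. It had 128, 151 and 186 normalized counts in 3D bioink, 538, 504 and 381 in 2D culture, and 448, 480 and 461 in tumours, a log2 difference of -1.59 for 3D bioink against tumours (SE 0.17, limma adjusted p = 2.12e-05). Both were thus lowest in the 3D bioink, like Trp53 and Cdkn2a. Among other targets of the list, chosen after their values were seen, Aen and Ei24 were also lowest there, but Bbc3 and Apaf1 were not. Bbc3 was higher in 3D bioink than in 2D culture (1.56, limma adjusted p = 1.51e-05) and not called against tumours (-0.14). Apaf1 was higher in 3D bioink than in tumours (0.23, limma adjusted p = 0.0418) and than in 2D culture (0.39, limma adjusted p = 0.00387).

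Perp, a membrane protein of desmosomes that also takes part in p53-dependent death, went the other way. It had 103, 46 and 63 normalized counts in 3D bioink and 325, 302 and 328 in 2D culture, against 1, 4 and 2 in tumours (2D culture against tumours 6.68, SE 0.41, limma adjusted p = 5.47e-07). Eda2r, a receptor of the TNF receptor family, had 69, 33 and 74 normalized counts in 3D bioink and 52, 53 and 56 in 2D culture, and was listed at 0 in the 3 tumour libraries. Values this near 0 make no fold for Eda2r interpretable. The size for Perp also rests on values near 0 in tumours, and in 2D culture against tumours it ran from 5.48 to 7.03 over the alternatives. Perp is abundant in epithelial cells. The 5 mesothelial markers summed to 56 to 192 in 3D bioink and 531 to 892 in 2D culture, against 12 to 29 in tumours. Msln, Krt19 and Lrrn4 were listed at 0 in every tumour library. Msln and Krt19 made up most of the sums in 2D culture, where they averaged 438 and 222. Wt1 and Lrrn4 did not follow that order and averaged highest in 3D bioink, while Upk3b was low in every group. For Wt1 the log2 difference was 1.21 in 3D bioink against 2D culture (limma adjusted p = 0.0419). In 2D culture against tumours it was -0.43 and not called. The part of mesothelial cells in the Perp values was not tested.

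Btg2, an antiproliferative gene, had 1295, 1277 and 1420 normalized counts in 3D bioink, 190, 253 and 269 in 2D culture, and 2921, 2772 and 2823 in tumours. It gave both the largest fall in 2D culture against tumours (-3.59, SE 0.12, limma adjusted p = 7.57e-09) and the largest rise in 3D bioink against 2D culture (2.50, SE 0.12, limma adjusted p = 1.36e-07). Pidd1, a death-domain scaffold for caspase-2, had 6, 115 and 116 normalized counts in 3D bioink, 245, 314 and 361 in 2D culture, and 124, 141 and 99 in tumours. Its log2 difference in 3D bioink against 2D culture was -2.74 (SE 0.90, limma adjusted p = 0.0247). The size rested on 3D bioink replicate 1, without which it was -1.38, and the call was lost without 2D culture replicate 2 (-2.71) or replicate 3 (-2.61). Zmat3, Rrm2b and Trp53inp1, chosen after their values were seen, were higher in both cultures than in tumours, by 1.04, 1.27 and 1.99 in 3D bioink and by 1.13, 0.94 and 0.43 in 2D culture (limma adjusted p at most 0.0144). Trp53inp1 in 2D culture missed the threshold without 2D culture replicate 2 (0.33). The 3 genes encode an RNA-binding protein, a subunit of ribonucleotide reductase and an autophagy regulator, in that order. Gdf15, Plk3 and Xpc of the same list, also chosen after their values were seen, were lower in both cultures than in tumours. Their log2 differences were -1.94, -1.35 and -0.91 in 3D bioink and -2.62, -1.14 and -0.66 in 2D culture (limma adjusted p at most 0.0112). Btg2 was lower in both cultures as well, and Perp, Eda2r and Polk were higher in both. Polk, also chosen after its values were seen, had 14, 78 and 87 normalized counts in tumours. Its log2 differences were 1.86 in 3D bioink and 1.83 in 2D culture. They fell to 1.04 and 1.00 at the lowest when single libraries were left out. The call in 3D bioink was lost without 3D bioink replicate 2 or 3. That in 2D culture was lost without 2D culture replicate 1 or 3.

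Of 18 regulators and relatives of p53, 16 were tested, and 5 were higher and 2 lower in 3D bioink against tumours, 4 and 4 in 2D culture against tumours, and 5 and 3 in 3D bioink against 2D culture. Over all genes the shares were 27.1% higher and 37.3% lower, 27.3% and 27.0%, and 27.0% and 32.2%. Median log2 differences were -0.05, -0.02 and 0.26. Usp7, the deubiquitinase of Mdm2 and p53, had 4099, 3738 and 3793 normalized counts in 3D bioink, 4818, 4770 and 4712 in 2D culture, and 2495, 2485 and 2300 in tumours (2D culture against tumours 0.97, SE 0.05, limma adjusted p = 2.57e-07). Bcl6, a repressor that can silence Trp53, had 850, 754 and 727 normalized counts in 3D bioink, 92, 115 and 115 in 2D culture, and 627, 695 and 716 in tumours. Bcl6 was lower in 2D culture than in tumours (-2.66, SE 0.12, limma adjusted p = 6.83e-08) and higher in 3D bioink than in 2D culture (2.85, SE 0.12, limma adjusted p = 7.92e-08). Topors, a ubiquitin and SUMO ligase for p53, was higher in 3D bioink than in tumours by 0.77 (SE 0.07, limma adjusted p = 9.25e-06).

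Most of the genes that CDK inhibitors act on or through were higher in 2D culture than in tumours and lower in 3D bioink than in 2D culture. Of 23 CDKs, cyclins and RB-E2F genes, 14 were higher and 2 lower in 2D culture against tumours (27.3% and 27.0% over all genes), with a median log2 difference of 0.60, and 3 were higher and 18 lower in 3D bioink against 2D culture (27.0% and 32.2% over all genes), with a median of -1.03. Of those 18, 12 were at least 2-fold lower in 3D bioink (10.9% over all genes). Against tumours, 7 were higher and 11 lower in 3D bioink (27.1% and 37.3% over all genes), with a median of -0.21, and this balance turned to 10 and 4 with equal library totals, 9 and 7 with equal upper quartiles and 9 and 6 with quantile normalization. The summed markers of cycling cells, which share Ccnb1 with this list, moved with it, at 11462 to 12388 in 3D bioink, 25026 to 25784 in 2D culture and 12720 to 13219 in tumours. Single markers did not all follow the sum. Mki67 averaged 1830 in 3D bioink, 1923 in 2D culture and 1765 in tumours. Top2a and Bub1 averaged 4059 and 307 in 3D bioink against 1752 and 109 in tumours, while 5 of the 10 markers were called lower there.

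Cyclin A2, from Ccna2, works with Cdk2 and Cdk1 in S and G2 phase. It had 1203, 1239 and 1074 normalized counts in 3D bioink, 3617, 3559 and 3718 in 2D culture, and 959, 928 and 967 in tumours. It showed the largest fall of the list in 3D bioink against 2D culture (-1.63, SE 0.06, limma adjusted p = 4.93e-08). Ccne2, a cyclin of the G1/S transition, had 194, 172 and 136 normalized counts in 3D bioink and 338, 350 and 330 in 2D culture, against 68, 62 and 103 in tumours (2D culture against tumours 2.15, SE 0.22, limma adjusted p = 1.82e-05). Cdk4 and Ccnd1, a target of the INK4 proteins and a cyclin that binds it, were chosen after their values were seen and were both lowest in 3D bioink. Their log2 differences were -0.76 and -0.49 in 3D bioink against tumours and -1.06 and -1.03 in 3D bioink against 2D culture (limma adjusted p at most 2.13e-05), and Ccnd1 against tumours was -0.04 and not called with quantile normalization. Cdk6, the other INK4 target named above, and Ccnd2 were also chosen after their values were seen. Against tumours they were higher in 3D bioink (0.60 and 0.32, limma adjusted p = 1.54e-05 and 0.000285). Against 2D culture both were lower in 3D bioink (-0.51 and -0.64, limma adjusted p = 6.05e-05 and 2.84e-06).

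Rb1, which encodes the retinoblastoma protein, went against most of its list. It had 849, 547 and 754 normalized counts in 3D bioink, 193, 185 and 157 in 2D culture, and 237, 187 and 297 in tumours, so that the 3D bioink stood alone. Rb1 was higher in 3D bioink than in tumours (1.57, SE 0.21, limma adjusted p = 9.20e-05) and than in 2D culture (1.98, SE 0.21, limma adjusted p = 2.26e-05). E2f4, a repressing E2F that acts with the pocket proteins in resting cells, was lower in 3D bioink than in tumours (-1.23, SE 0.08, limma adjusted p = 1.06e-06). Ccnd3 was lower in 2D culture than in tumours (-0.76, SE 0.08, limma adjusted p = 2.11e-05).

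Further CDK inhibitors and the genes that turn them over were tested for 8 of the 9 listed. In 2D culture against tumours 6 were higher and 0 lower by limma's adjusted p, with 0 lower also at an unadjusted p below 0.05 (27.3% and 27.0% over all genes by adjusted p), with a median log2 difference of 0.84, and in 3D bioink against 2D culture 2 were higher and 5 lower (27.0% and 32.2%), with a median of -1.46. For 3D bioink against tumours the counts were 2 and 3 (27.1% and 37.3%), with a median of -0.12. Skp2, the receptor through which p27 is ubiquitinated, was chosen after its values were seen. It had 722, 616 and 592 normalized counts in 3D bioink, 1949, 1845 and 1839 in 2D culture, and 687, 596 and 707 in tumours, which puts 2D culture above both other groups. Skp2 was lower in 3D bioink than in 2D culture (-1.55, SE 0.09, limma adjusted p = 6.36e-07), the comparison in which Cdkn1b was higher. In 3D bioink against tumours, where Cdkn1b was also higher, the difference of Skp2 was -0.05 (SE 0.09, limma adjusted p = 0.689), and it was 0.22 with equal library totals. Skp2 acts on the p27 protein, which was not measured, and a link between the Skp2 and Cdkn1b values was not tested.

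Cdc20, an activator of the anaphase-promoting complex, had 1162, 1197 and 1230 normalized counts in 3D bioink against 4248, 4349 and 4478 in 2D culture (-1.86, SE 0.05, limma adjusted p = 8.59e-09). Cul1, the scaffold of the SCF ligases, was higher in 3D bioink than in tumours (1.17, SE 0.08, limma adjusted p = 7.61e-07) and than in 2D culture (0.34, SE 0.08, limma adjusted p = 0.00331). Dtl, the substrate receptor that targets p21 in S phase, was higher in 2D culture than in tumours (1.78, SE 0.37, limma adjusted p = 0.00240), although its tumour libraries ranged from 142 to 526. Cdkn2d, the INK4 inhibitor p19Ink4d, had 20, 0 and 0 normalized counts in 3D bioink, 164, 70 and 0 in 2D culture, and 105, 33 and 92 in tumours. Its call in 3D bioink against tumours (limma adjusted p = 0.0467) was lost in 11 alternatives (adjusted p up to 0.134), including the fits without any 1 tumour library, 3D bioink replicate 2 or 3, or 2D culture replicate 2, and with values at 0 in 2 of the 3 libraries no fold is given.

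**Figure D4:**
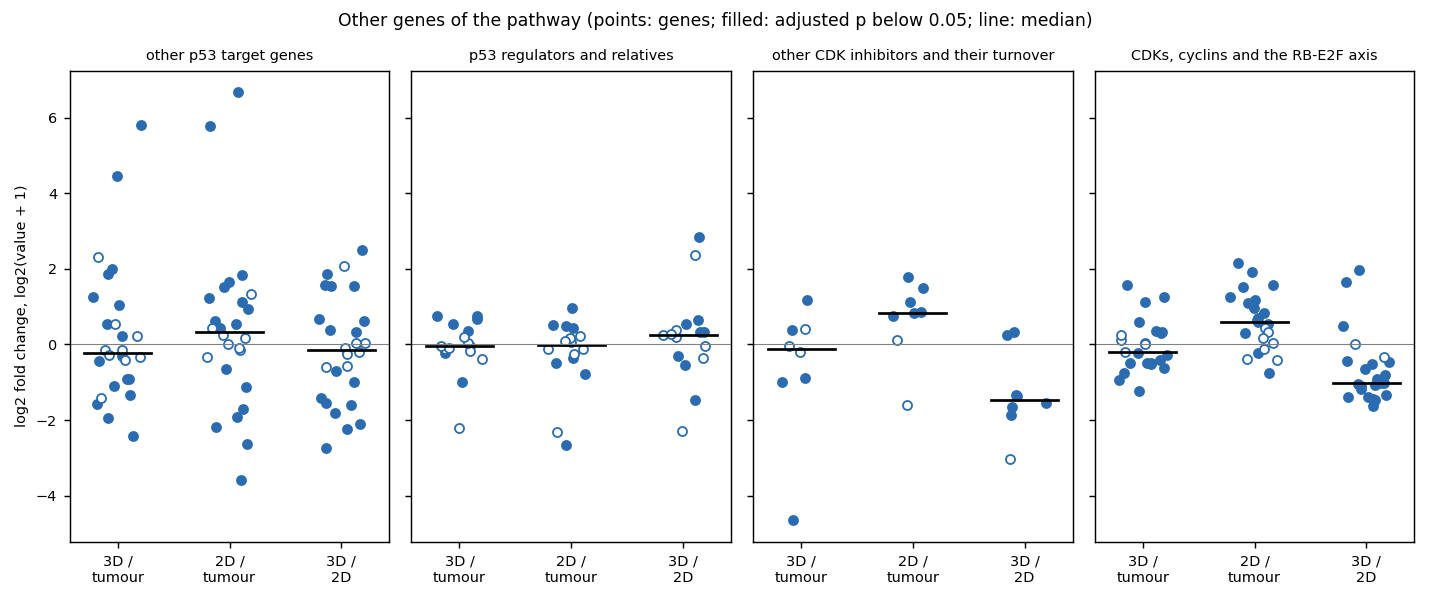
Log2 differences of the genes in 4 further lists (other p53 targets, p53 regulators and relatives, other CDK inhibitors and their turnover, CDKs with cyclins and the RB-E2F axis) in the 3 comparisons, 1 point per gene, filled where limma adjusted p was below 0.05, with a line at each list's median. The CDK and cyclin list has its median at 0.60 in 2D culture against tumours and at -1.03 in 3D bioink against 2D culture, while the other p53 targets scatter on both sides of 0.

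For 3 members the tested genes with the most similar profile over the 9 libraries were found by the root mean square (RMS) distance between log2 profiles, each centred on its own mean. For Trp53, whose own profile had an RMS of 0.532, these were Zc3h7b (0.0655), Blvra (0.0785) and Syngr2 (0.0788). For Cdkn2a, with an RMS of 0.417, they were Dnlz (0.0794), St7 (0.0797) and Rpl11 (0.0815). For Cdkn1a, with an RMS of 0.154, they were Ccni (0.0606), Csnk1d (0.0678) and Fbxw11 (0.0688). The distances for Cdkn1a are closer to the size of its own variation than those for the other 2 members. Reads of Rpl11 may be shared with near-identical copies.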

How the data were processed

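Total RNA from 9 libraries was made into libraries with a directional kit, per the labels' protocols. Each deposited score is a whole number, a rounded normalized count of 1 gene symbol in 1 library. The tools that the submitters' processing notes name are RSEM, kallisto, DESeq and DESeq2 1.24.0, with build mm10, and they give no role, order or strand setting. Because the values are rounded and normalized, no count model was fitted, and no counting interval is given.

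Values were analysed as log2(value + 1) with limma 3.58.1 in R 4.3.3 (lmFit, contrasts, eBayes with a trend). One model covered all 9 libraries with 6 residual degrees of freedom, genes with a mean of at least 10 were kept (13773 of 20778; 2865 were 0 throughout), and p-values were adjusted by Benjamini-Hochberg over all genes tested at a threshold of 0.05. Fold changes on this scale can understate the change of low genes, but a single library near 0 can enlarge it. For Pidd1, 3D bioink replicate 1 held 6 normalized counts. Its means of 79.0 in 3D bioink and 307 in 2D culture stand beside a 6.66-fold difference on this scale. Since the origin of the replicates is not given, p-values measure only how far these libraries spread, which can be technical. None of the 36 pairs of libraries held identical values.

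Members and lists were chosen with earlier results of these data known. The rule for other named genes took, per list and comparison, the largest rise and fall among called genes whose groups did not overlap; others are said to be chosen after their values were seen, as were the motifs. A gene that the rule names among the p53 regulators is not reported here. Coordinates are those of a GENCODE annotation of GRCm38, the assembly also called mm10, and promoter windows are from RefSeq (GRCm38.p6). Matching replicate numbers were checked and did not pair the libraries. Alternatives changed the pseudocount (5), the filter (none, or a mean of 50), the scaling, the trend, the array weights, the groups fitted and the replicate block, and left out each library.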

Additional observations from a re-analysis of the deposited data

How the results depend on the processing

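Of 570 recomputed values (30 member comparisons under 19 alternatives), 545 kept their side of the threshold and 7 gained a call. Another 16 lost the call with their sign kept, and 2 called values changed sign and lost the call as well. Of the 30 comparisons, 25 kept their side of the threshold under every alternative. In comparisons that were not called, 2 values also changed sign, Cdkn1b in 2D culture against tumours (0.014 with equal totals) and Cdkn1c in 3D bioink against tumours (-0.056 without tumour replicate 2). The 2 called values were Cdkn1a in 3D bioink against tumours, at 0.045 with equal totals and 0.015 with quantile normalization. That comparison also missed the threshold with equal upper quartiles (-0.034), without the trend, and without 3D bioink replicate 2, tumour replicate 1 or tumour replicate 2. Cdkn1a was called higher in 3D bioink than in 2D culture with equal totals (0.31), equal upper quartiles (0.28), quantile normalization (0.33) and array weights (0.17). Cdkn1c in 2D culture against tumours was called with quantile normalization (0.78) and without tumour replicate 3 (0.68), and Cdkn2b in 3D bioink against 2D culture with array weights (0.31). With array weights, 5 members were called higher in 3D bioink than in 2D culture, against 3. Among 111 comparisons of 37 other genes of the lists, 90 kept their side of the threshold throughout. There, 1 called value changed sign and lost the call, Ccnd3 in 3D bioink against tumours (0.066 with quantile normalization). Beside it, 25 values in 10 comparisons that were not called changed sign. Of the 23 CDK, cyclin and RB-E2F genes, 11 were called lower in 3D bioink against tumours, and 4 with equal totals, 7 with equal upper quartiles and 6 with quantile normalization. Of the same genes, 2 were called lower in 2D culture against tumours, and 1 with no filter, with each of the 3 scalings, without the trend and with the replicate block, and 1 to 2 when single libraries were left out (1 without 2D culture replicate 1 or 2, 3D bioink replicate 3 or tumour replicate 1). The cause of these changes was not tested.

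The scalings moved the median log2 difference over all genes in 3D bioink against tumours to 0.14 (equal totals), 0.07 (equal upper quartiles) and 0.04 (quantile), against -0.11, and the split of calls to 4886 higher and 3825 lower, 4520 and 4193, and 4435 and 4229, against 3737 and 5132. In 2D culture against tumours quantile normalization gave a median of 0.18, against 0.01, and 4489 higher and 3058 lower, against 3761 and 3713. Between the cultures, equal totals gave 0.17 and equal upper quartiles 0.14, against -0.02, with 4710 higher and 3437 lower and 4528 and 3585, against 3713 and 4435. Leaving out 1 library gave 8238 to 8725, 6616 to 8035 and 7302 to 8188 called genes in the 3 comparisons. Among the members, the scalings changed the call of Cdkn1a in 3D bioink against tumours and against 2D culture. They also changed the calls of Cdkn1c and Cdkn2b in 2D culture against tumours. Values of the other members moved with the scaling but kept their side of the threshold.

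Libraries with the same replicate number did not deviate together: over 9 pairs the correlation of their deviations ran from -0.033 to 0.080, and 0 pairs were over 0.1. With the replicate block, 3682 genes were higher and 5113 lower in 3D bioink against tumours, 3721 and 3636 in 2D culture against tumours, and 3639 and 4400 in 3D bioink against 2D culture. Among the members the block changed 1 call, Cdkn2b in 2D culture against tumours (limma adjusted p = 0.0694). Depth is unknown, so that values near 0, as for Eda2r and Cdkn2d, cannot be told from absence.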

Other observations

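The 12 genes of a senescence-associated list, which includes secreted factors as well as nuclear genes, differed in every gene between the cultures. In 3D bioink against 2D culture 10 were higher and 2 lower, with a median log2 difference of 2.09, where 27.0% of all genes were higher and 32.2% lower. Against tumours, 5 were higher and 4 lower in 3D bioink, with a median of 0.23 (27.1% higher and 37.3% lower over all genes), and in 2D culture against tumours 3 were higher and 7 lower, with a median of -0.74 (27.3% and 27.0% over all genes). Mmp3, a matrix-degrading enzyme, had 5947, 5662 and 5861 normalized counts in 3D bioink, 13, 23 and 9 in 2D culture, and 6, 8 and 16 in tumours, so that the 3D bioink stood far above the rest. Igfbp3, an IGF-binding protein, had 956, 1021 and 966 normalized counts in 3D bioink and 491, 411 and 400 in 2D culture, against 42, 50 and 45 in tumours. Cxcl1, a neutrophil-attracting chemokine, had 537, 430 and 536 normalized counts in 3D bioink, 14, 18 and 5 in 2D culture, and 864, 869 and 906 in tumours. Tgfb1 was lower in 3D bioink than in tumours (log2 difference -1.60, SE 0.11, limma adjusted p = 8.25e-07). The 6 fibroblast markers had sums of 13909 to 14973 in 3D bioink, 8960 to 9507 in 2D culture and 945 to 1004 in tumours, carried mostly by Col1a1 and Col1a2, and their part in these values was not tested.

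Lmnb1, which encodes lamin B1 and is known to fall in senescent cells, had 2479, 3191 and 2918 normalized counts in 3D bioink, 10044, 10468 and 11715 in 2D culture, and 6833, 6971 and 7661 in tumours. It was lower in 3D bioink than in 2D culture (-1.91, SE 0.10, limma adjusted p = 1.82e-07) and than in tumours (-1.33, SE 0.10, limma adjusted p = 1.50e-06). Of the 10 markers of cycling cells, limma called 9 lower in 3D bioink against 2D culture (32.2% over all genes). Against tumours it called 2 higher and 5 lower in 3D bioink (27.1% and 37.3% over all genes). The part of cycling cells in the Lmnb1 values was not tested.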
